A study of Homo sapiens with 9 samples.

Results

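The translation factors are the proteins, other than the ribosome itself, that start and lengthen a protein chain. Here they were the genes whose symbol begins with EIF1 to EIF6 or with EEF1 or EEF2, without the eIF2 kinases (EIF2AK1 to EIF2AK4), EIF2S1, EIF4EBP1, EEF1E1 and readthrough genes with a hyphen in the name. The rule used names only and no measured value. It gave 61 genes of the 22587 in the table, and 58 of them passed the filter for testing, a mean of at least 0.5 FPKM over all 9 libraries. FPKM are fragments per kilobase of transcript, scaled to the depth of the library. Levels of different genes can be set side by side only as far as the length used for each gene fits its transcripts. EIF4E1B, EIF4E3 and EIF4EBP3 did not pass, and EIF4A1 is not analysed here.

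RNA was sequenced from HepG2, an established human liver tumor line, in high-glucose medium with serum. The 3 groups held 3 libraries each: cells with Gln added (the label gives no time for them), cells deprived of Gln for 12 h and cells deprived for 24 h. For the sample treatment, the labels name GlutaMAX, a stable dipeptide source of Gln, in the cells with Gln added, whereas the treatment protocol places it in the Gln-free medium. The labels do not say that the libraries of a group came from separate cultures, so a p-value measures the spread between these libraries, which may be technical. All of the samples are 1 cell line, and RNA levels say nothing of protein amounts or of phosphorylation.

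Initiation begins when eIF2, bound to GTP, brings the initiator tRNA to the small ribosomal subunit, where eIF1, eIF1A and eIF3 hold the complex open to scan an mRNA that the cap-binding factors of the eIF4 group have loaded. Recognition of the start codon releases eIF2 with GDP, and the exchange factor eIF2B must recharge it. Phosphorylation of eIF2 by kinases that sense stress, such as lack of an amino acid, turns eIF2 into an inhibitor of eIF2B. In elongation, eEF1A brings aminoacyl-tRNAs, the other eEF1 subunits recharge eEF1A, and eEF2 moves the ribosome along.

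The libraries held 29621270 to 36261546 fragments on genes. Of the 12 hepatocyte markers, all were in the table, and their summed level was 8882 to 9027 FPKM with Gln added, against 7772 to 7864 at 12 h and 7475 to 7827 at 24 h, with ALB highest. The 5 fibroblast markers in the table summed to 0.113 to 0.181 FPKM with Gln added, against 0.317 to 0.518 at 12 h and 0.608 to 0.780 at 24 h, and the 3 endothelial ones to at most 0.366. The 3 leukocyte markers in the table summed to 735 to 755, 526 to 566 and 740.4 to 787 FPKM, nearly all of it LYZ, with a mean of 683. The part of these changes in the results was not tested.

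Gln deprivation moved the translation factors in both directions. At 12 h, 19 of the 58 tested genes rose, beside 29.1% of all 11880 genes tested, and 11 fell, beside 31.0%. Together, 30 of 58 (51.7%) were called, beside 60.2% of all genes, where called means an adjusted p under 0.05 from limma with Benjamini-Hochberg adjustment over the 11880 genes. Changes of at least 0.5 on the log2 scale were seen in 6 of them (10.3%), beside 20.4% of all genes. At 24 h, 19 rose, beside 33.0% of all genes, and 13 fell, beside 31.7%. That made 32 of 58 (55.2%), beside 64.7%, and 7 of them (12.1%) changed by at least 0.5, beside 24.9%. In both comparisons the share of translation factors past a change of 0.5 was lower than that of all genes, and their median difference was near 0, at -0.0025 at 12 h and 0.006 at 24 h, beside -0.019 and 0.013 for all genes. Both comparisons use the same 3 libraries with Gln added. In RNA from whole cultures, fewer cells of a kind and less RNA per cell cannot be told apart.

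Of the 11 factors that choose the start codon and bring the initiator tRNA, 5 rose and 1 fell at each time, so that 54.5% were called, beside 60.2% of all genes at 12 h and 64.7% at 24 h. EIF1 (chr17:41688885-41692668, plus strand) encodes the small factor that keeps the scanning ribosome open and guards against wrong start codons. Its level was 167, 168 and 167 FPKM in the libraries with Gln added, against 355, 346 and 332 at 12 h and 287, 275 and 285 at 24 h. The 3 groups did not overlap, with the 12 h libraries highest and the 24 h libraries between. This was a 2.06-fold rise at 12 h (log2 difference 1.04, SE 0.0339, limma adjusted p = 2.50e-09) and a 1.69-fold rise at 24 h (0.76, SE 0.0339, limma adjusted p = 1.73e-08). At 12 h it was the largest rise among the 58 tested translation factors.

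EIF1B encodes a close relative of eIF1, and its RNA was called at neither time. It stood at 51.9, 46.5 and 50.3 FPKM with Gln added, against 55.4, 51.4 and 52.3 at 12 h and 45.2, 47.1 and 46.8 at 24 h, and each deprived group overlapped the group with Gln added. The log2 differences were 0.10 (limma adjusted p = 0.0921) and -0.10 (limma adjusted p = 0.0953). As a description of a pair chosen after its values were seen, like each ratio of 2 genes given here, the EIF1 level was 3.38 ± 0.202 (SD, n = 3) times the EIF1B level within a library with Gln added, against 6.49 ± 0.212 times at 12 h and 6.09 ± 0.256 times at 24 h. The deprived libraries lay at 5.84 to 6.74, above the 3.21 to 3.60 of those with Gln added.

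The eIF2 subunits among the members rose at both times. EIF2S2 (chr20:34088309-34112243, minus strand) encodes the beta subunit of eIF2, which contacts eIF5 and eIF2B. Its level was 84.5, 80.6 and 81.2 FPKM with Gln added, against 149.6, 143 and 152 at 12 h and 145, 138 and 142 at 24 h, so the deprived libraries were all above those with Gln added and overlapped each other. The folds were 1.81 (log2 difference 0.85, SE 0.0363, limma adjusted p = 1.93e-08) and 1.73 (0.79, SE 0.0363, limma adjusted p = 2.07e-08). Of its 100-base windows, 15.4% also occur in pseudogenes such as EIF2S2P4, so some reads could be shared.

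EIF2S3, on the X chromosome, encodes the gamma subunit that binds GTP and the initiator tRNA. It rose from 76.6, 76.6 and 76.8 FPKM to 101, 95.6 and 102 at 12 h and 97.0, 94.6 and 101 at 24 h, without overlap (1.30-fold, limma adjusted p = 8.26e-06, and 1.27-fold, limma adjusted p = 1.14e-05). The rise of EIF2S2 was the larger of the pair, and their ratio within a library went from 1.07 ± 0.0287 to 1.49 ± 0.00741 at 12 h and 1.45 ± 0.0407 at 24 h. EIF2S1, which encodes the alpha subunit that the stress kinases phosphorylate and is no member here, had 24.5 ± 0.732 FPKM with Gln added, against 26.0 ± 1.81 at 12 h and 26.0 ± 1.07 at 24 h and was not called at either time (limma adjusted p = 0.179 and 0.185). EIF2S3B, a gene copy of EIF2S3 that shares 10.9% of its windows with it, stood at 2.74, 2.27 and 2.91 FPKM with Gln added, against 3.66, 3.55 and 3.16 at 12 h and 3.21, 4.40 and 3.51 at 24 h. It was called at both times (limma adjusted p = 0.0202 and 0.00632). At 12 h its call was lost in 4 of 19 alternative analyses. EIF2S3B had 251 to 464 fragments in a library and EIF2S3 9254 to 12693, so the rises of these copies may share reads.

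The other start site factors moved less. EIF2A, which encodes an alternative carrier of initiator tRNA, rose 1.11-fold at 12 h and 1.08-fold at 24 h (limma adjusted p = 0.00326 and 0.0183), from 24.0 ± 0.479 FPKM. The 24 h call was lost without replicate 1 or replicate 2 with Gln added (limma adjusted p = 0.0606 and 0.0633). EIF5, which encodes the factor that makes eIF2 hydrolyse its GTP, was the member of this group that fell. Its levels were 49.7, 48.0 and 50.7 FPKM with Gln added, against 45.0, 42.7 and 43.9 at 12 h and 43.6, 40.5 and 43.0 at 24 h, without overlap (log2 differences -0.17 and -0.22, limma adjusted p = 0.00348 and 6.03e-04). EIF5B, which joins the large ribosomal subunit, had 44.4, 41.6 and 42.9 FPKM in the 3 groups and passed at neither time. The 95% interval of its log2 difference was -0.19 to 0.01 at 12 h and -0.15 to 0.05 at 24 h. EIF1AX, whose product works beside eIF1, and EIF2D, which acts in recycling and restarting, also missed the threshold at both times, with log2 differences of -0.13 and -0.07 for EIF1AX and 0.13 and -0.02 for EIF2D. EIF1AY, on the Y chromosome, was not called either. EIF1AD, which has no role in the list, had log2 differences of -0.16 and -0.05 and was not called.

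The 5 subunits of the exchange factor eIF2B moved in different directions. EIF2B1 encodes the alpha subunit, part of the core that senses phosphorylated eIF2. It fell from 23.5, 22.7 and 23.6 FPKM to 18.9, 18.6 and 17.7 at 12 h and 18.5, 18.4 and 18.7 at 24 h, and no library overlapped (to 0.791 of the level with Gln added, limma adjusted p = 2.98e-05, and to 0.796, limma adjusted p = 2.78e-05). EIF2B2, the beta subunit of the same core, rose from 7.22, 7.44 and 7.55 FPKM to 8.71, 9.28 and 8.31 at 12 h and 10.5, 9.26 and 9.60 at 24 h (1.18-fold, limma adjusted p = 0.00473, and 1.32-fold, limma adjusted p = 1.49e-04). The EIF2B1 level was 3.14 ± 0.108 times the EIF2B2 level with Gln added, against 2.10 ± 0.0889 times at 12 h and 1.90 ± 0.119 times at 24 h. Antisense exons overlap 15.6% of EIF2B1 and 23.6% of EIF2B2, and whether the counting used the strand is not given.

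EIF2B3, the gamma subunit, fell at 12 h (12.8, 12.8 and 14.0 FPKM with Gln added and 10.8, 10.6 and 10.9 at 12 h, log2 difference -0.29, limma adjusted p = 0.00582). At 24 h it stood at 12.8, 10.3 and 12.4 FPKM with a log2 difference of -0.16 (limma adjusted p = 0.0742). EIF2B5, the catalytic subunit, was called at neither time, with 23.0, 22.6 and 23.4 FPKM. EIF2B4 had log2 differences of -0.02 and 0.09. Its call at 24 h (limma adjusted p = 0.0406) was lost in 11 of 19 alternative analyses. The eIF2B genes together held 0.0262% of all FPKM with Gln added, against 0.0251% at 12 h and 0.0268% at 24 h.

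Of the 14 genes for subunits of eIF3, the scaffold that binds the small ribosomal subunit, 3 rose at 12 h and 11 were not called. At 24 h 4 rose and 3 fell. The called shares were 21.4% and 50%, beside 60.2% and 64.7% of all genes. EIF3A (chr10:119033670-119080817, minus strand) encodes the largest subunit, around which the complex is built. Its level was 77.7, 73.6 and 78.5 FPKM with Gln added, against 127, 128 and 133 at 12 h and 123, 126 and 123 at 24 h. The deprived libraries lay at 123 to 133 FPKM and those with Gln added at 73.6 to 78.5, a rise of 1.69-fold at 12 h (log2 difference 0.76, SE 0.0353, limma adjusted p = 3.61e-08) and 1.62-fold at 24 h (0.69, SE 0.0353, limma adjusted p = 4.26e-08).

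EIF3B, the partner of EIF3A in the core, did not pass at either time, with 105, 102 and 103 FPKM with Gln added, against 108, 106 and 102 at 12 h and 105, 95.7 and 94.2 at 24 h. The EIF3A level was 0.740 ± 0.0176 of the EIF3B level with Gln added, against 1.23 ± 0.0645 at 12 h and 1.26 ± 0.0807 at 24 h. Among the 12 subunit genes other than EIF3C and EIF3CL, EIF3A ranked 7 from the highest in each library with Gln added, 1 in each library at 12 h, and 1 or 2 at 24 h. EIF3F had the lowest FPKM in all 9 libraries, at 15.0 to 17.6. Its 3425 to 4338 fragments in a library were divided by a length of 6920 bases. EIF3G had 3542 to 4915 fragments over 1103 bases, so ranks between genes depend on these lengths.

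EIF3J, a loosely bound subunit at the decoding site, rose 1.32-fold at 12 h and 1.33-fold at 24 h, from 46.0, 42.8 and 47.2 FPKM to 59.7, 59.0 and 61.4 at 12 h and 57.8, 60.2 and 62.9 at 24 h (limma adjusted p = 2.42e-05 and 1.68e-05). The other eIF3 genes are named after their values were seen. EIF3G, which binds RNA during scanning, rose 1.13-fold and 1.23-fold (limma adjusted p = 0.00858 and 2.35e-04). At 24 h EIF3L also rose (log2 difference 0.14, limma adjusted p = 0.00688), and EIF3F (-0.16), EIF3H (-0.13) and EIF3D (-0.12) fell. The EIF3D call was lost in 8 of 19 alternative analyses and the 24 h call of EIF3H in 1, with FPKM rescaled to the same total. A same-strand neighbour has exons over 41.1% of EIF3L. EIF3E, EIF3I, EIF3K and EIF3M were called at neither time, with log2 differences between -0.06 and 0.06.

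EIF3C and EIF3CL are near copies. Of the 100-base windows of EIF3C, 92.3% also occur in EIF3CL, so the split of reads between them is uncertain. Neither was called, and their sum was 13.7 ± 1.37 FPKM with Gln added, against 13.2 ± 0.739 at 12 h and 16.4 ± 3.67 at 24 h. The 24 h mean was carried by replicate 2, at 20.6 FPKM, while the other replicates had 14.7 and 13.8.

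Of the 9 tested genes for cap binding and RNA unwinding, 4 rose and 3 fell at 12 h, and 3 rose and 3 fell at 24 h. That was 77.8% and 66.7% called, beside 60.2% and 64.7% of all genes. EIF4G3 (chr1:20806292-21177285, minus strand) encodes a relative of the scaffold eIF4G1, which bridges the cap-binding protein, the helicase and eIF3. It rose from 7.16, 7.37 and 7.54 FPKM to 12.1, 11.9 and 12.0 at 12 h and 12.9, 13.3 and 12.5 at 24 h. All 24 h libraries were above all 12 h libraries, and those above the ones with Gln added. The difference between the times was not called (log2 difference 0.07 to 0.12, limma adjusted p 0.0853 to 0.348 over the analyses run). Against Gln added, the folds were 1.63 (log2 difference 0.70, SE 0.0425, limma adjusted p = 2.48e-07) and 1.75 (0.80, SE 0.0425, limma adjusted p = 5.96e-08). The latter was the largest rise among the members at 24 h.

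EIF4G1, the more abundant scaffold, stood at 104, 105 and 102 FPKM with Gln added, against 100.1, 101 and 97.1 at 12 h and 104, 102 and 98.8 at 24 h. It was not called, and the 95% interval of its log2 difference was -0.13 to 0.02 at 12 h and -0.10 to 0.04 at 24 h. Its level was 14.1 ± 0.457 times that of EIF4G3 with Gln added, against 8.30 ± 0.190 times at 12 h and 7.89 ± 0.208 times at 24 h. EIF4G2, which encodes a relative that lacks the site for eIF4E, rose at 12 h (274, 274 and 282 to 301, 303 and 312 FPKM, log2 difference 0.14, limma adjusted p = 0.00272). At 24 h it was 273, 283 and 277 FPKM and overlapped the group with Gln added.

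EIF4E encodes the protein that binds the cap. Its RNA fell slightly, from 18.7, 19.6 and 19.3 FPKM to 16.9, 17.6 and 18.1 at 12 h (limma adjusted p = 0.0265) and 15.9, 17.0 and 17.2 at 24 h (limma adjusted p = 0.00245), without overlap with Gln added. The 12 h call was lost in 5 of 19 alternative analyses. Of the windows of EIF4E, 17.1% also occur in EIF4EP2. EIF4E2 encodes a related cap-binding protein that can act in repression. It fell further, from 25.5, 25.9 and 26.4 FPKM to 21.1, 20.6 and 20.6 at 12 h and 20.5, 18.9 and 19.6 at 24 h (to 0.800 of the level with Gln added, limma adjusted p = 4.82e-05, and to 0.758, limma adjusted p = 7.06e-06). EIF4E3 had 5 to 21 fragments in a library and EIF4E1B 0 or 1, so no change in them was detectable at this depth.

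EIF4B and EIF4H encode related proteins that stimulate the helicase eIF4A, and they moved in opposite directions. EIF4B rose from 205, 202 and 205 FPKM to 239, 232 and 236 at 12 h and 217, 215 and 218 at 24 h (log2 differences 0.21 and 0.08, limma adjusted p = 9.25e-05 and 0.0219). EIF4H fell from 123, 129 and 126 FPKM to 116, 119 and 119 at 12 h and 113, 104 and 106 at 24 h (-0.10 and -0.23, limma adjusted p = 0.0387 and 2.50e-04). The 12 h call of EIF4H was lost in 12 of 19 alternative analyses and the 24 h call of EIF4B in 6. Of the windows of EIF4B, 16.6% also occur in 5 other genes, most often in EIF4BP6. EIF4A2, a helicase of initiation, was not called, with 167, 158 and 159.8 FPKM. EIF4A3, a related helicase that sits at exon junctions, rose 1.10-fold at 12 h (limma adjusted p = 0.0190) and was called at 24 h with the same fold. Its calls were lost in 2 alternatives at 12 h (limma adjusted p up to 0.0708, without replicate 1 of that group) and in 3 at 24 h (up to 0.0687, without replicate 2 with Gln added).

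Of the 11 genes of this group, 5 carry an E-box, the letters CACGTG, near their start (EIF4E, EIF4G1, EIF4B, EIF4H and EIF4A3). E-boxes are bound by factors such as MYC. RefSeq promoters (GRCh38.p14, 250 bases before to 50 bases after the start) were found for 49 of the 61 genes. Of these, 13 (26.5%) held CACGTG, which reads the same on both strands, in any of their promoters. It was in 7.26% of all 35116 promoters and 9.49% of the 13652 promoters of tested genes. The share of members counts genes and the other shares count promoters, here and for the other letters. A gene can have several promoters and so more places for a match, so these shares are not alike and their gap was not tested. The windows below are those of EIF4E and EIF4G1, which hold 2 each, and of EIF4B and EIF4H, which moved in opposite directions. Capitals mark the E-box.
EIF4E, chr4:98929190-98929215, minus strand: acatatccgtCACGTGgccagaagct
EIF4E, chr4:98929343-98929368, minus strand: acccatcggcCACGTGaccagtcctt
EIF4G1, chr3:184314452-184314477, plus strand: ctgtggctgtCACGTGacggggcggg
EIF4G1, chr3:184314529-184314554, plus strand: ctgcgccggtCACGTGggggcgccgg
EIF4B, chr12:53006424-53006449, plus strand: ccgctataatCACGTGattgcctcat
EIF4H, chr7:74174147-74174172, plus strand: gccgccgcacCACGTGggctgcagag

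Genes with an E-box moved in both directions. Of the 12 tested members with an E-box, the median log2 difference was -0.04 at 12 h and -0.08 at 24 h, and of the 34 without, 0.005 and 0.015. At each time 7 of the 12 with the letters (58.3%) and 18 of the 34 without (52.9%) were called, beside 60.2% and 64.7% of all genes. The other carriers were EIF4A3, EIF1B, EIF2B3, EIF3F, EIF3K, EIF5A2, EEF2K, EEF1AKMT4 and EIF4EBP3. Letters of a C/EBP-ATF composite element, TGATGNAA on either strand, occurred in the window of EIF4E3 among the 49 (2.04%). They were in 3.62% of all promoters and 1.97% of the promoters of tested genes. A window without a match says only that these letters are not in it.

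Of the repressors that bind eIF4E, EIF4EBP2 was not called, at 47.6, 46.5 and 45.4 FPKM, and EIF4EBP3 had 0 to 3 fragments in a library. EIF4EBP1, which encodes the best known of them and is no member, rose from 60.8, 61.6 and 59.3 FPKM to 146, 136 and 127 at 12 h and 145, 136 and 129.7 at 24 h (log2 differences 1.16 and 1.17, limma adjusted p = 3.49e-08 and 2.11e-08). The EIF4EBP1 level was 3.15 ± 0.0882 times the EIF4E level with Gln added, against 7.79 ± 0.824 times at 12 h and 8.22 ± 0.815 times at 24 h. EIF4ENIF1, which encodes a protein that carries eIF4E into the nucleus, rose at 12 h (3.11 ± 0.284 to 3.76 ± 0.252 FPKM, limma adjusted p = 0.0132) and had a log2 difference of 0.12 at 24 h (limma adjusted p = 0.190). Its 12 h call was lost without replicate 1 with Gln added (limma adjusted p = 0.0574).

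The EIF5A pair moved apart. EIF5A (chr17:7306999-7312463, plus strand) encodes the factor that carries hypusine and helps ribosomes past difficult stretches such as runs of proline. It fell from 138, 135 and 132 FPKM to 116, 109.7 and 105 at 12 h and 101, 90.8 and 95.5 at 24 h, and the 3 groups did not overlap (to 0.815 of the level with Gln added, limma adjusted p = 3.13e-04, and to 0.709, limma adjusted p = 5.19e-06). EIF5A2, its much rarer relative, rose from 2.67, 2.63 and 3.05 FPKM to 3.67, 3.66 and 4.38 at 12 h and 3.35, 4.62 and 5.06 at 24 h (1.40-fold, limma adjusted p = 0.0123, and 1.56-fold, limma adjusted p = 0.00267).

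The EIF5A level was 48.8 ± 4.73 times that of EIF5A2 with Gln added, against 28.5 ± 3.98 times at 12 h and 22.9 ± 6.36 times at 24 h. EIF5AL1, a copy that shares sequence with EIF5A, also fell, from 2.11 ± 0.297 FPKM to 1.43 ± 0.0884 at 12 h and 1.29 ± 0.261 at 24 h (each mean ± SD, n = 3, limma adjusted p = 0.0103 and 0.00204). Of the windows of EIF5A, 10.9% occur elsewhere, most often in EIF5AL1, so these falls may share reads. The enzymes that make hypusine, DHPS and DOHH, were not called against Gln added. Between the times DOHH was lower at 24 h (log2 difference -0.25, limma adjusted p = 0.0310), and DHPS was not called. EIF6, which encodes a factor that keeps free large subunits from joining, rose from 195, 201 and 195 FPKM to 256, 256 and 245 at 12 h and 259, 225 and 247 at 24 h (log2 differences 0.35 and 0.30, limma adjusted p = 9.77e-05 and 2.47e-04). Exons of a same-strand neighbour overlap 17.3% of EIF6.

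In elongation, EEF2 (chr19:3976056-3985463, minus strand) rose and the gene of its inhibiting kinase fell. EEF2 encodes the translocase that moves the ribosome by a codon. It stood at 666, 671 and 653 FPKM with Gln added, against 886, 907 and 833 at 12 h and 941, 919 and 879 at 24 h, and all deprived libraries were above those with Gln added (1.32-fold, limma adjusted p = 1.15e-05, and 1.38-fold, limma adjusted p = 2.79e-06). EEF2K (chr16:22206278-22288738, plus strand), which encodes the kinase that phosphorylates eEF2 and slows elongation, fell from 12.7, 13.1 and 11.9 FPKM to 8.79, 9.04 and 9.14 at 12 h and 9.53, 9.71 and 10.00 at 24 h (to 0.716 of the level with Gln added, limma adjusted p = 8.99e-06, and to 0.776, limma adjusted p = 5.36e-05).

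The EEF2 level was 52.9 ± 1.76 times that of EEF2K with Gln added, against 97.4 ± 5.48 times at 12 h and 93.8 ± 5.50 times at 24 h. Among the 49 members with a promoter, the window of EEF2 was the one with a full cyclic AMP response element, TGACGTCA. That is 2.04% of these members, beside 1.85% of all promoters and 2.83% of the promoters of tested genes. The element lies just before the start of EEF2 and is printed in capitals, beside the E-box of EEF2K.
EEF2, chr19:3985459-3985486, minus strand: agctgagtgtTGACGTCAgcgttctctt
EEF2K, chr16:22206209-22206234, plus strand: tgggggcggcCACGTGagcgccacgc

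EEF1A1 encodes the carrier of aminoacyl-tRNAs and was the most abundant member in every library, at 2255, 2159 and 2289 FPKM with Gln added, against 2374, 2436 and 2446 at 12 h and 2533, 2349.8 and 2491 at 24 h. The groups did not overlap with Gln added, and the rise was small (1.08-fold, limma adjusted p = 0.0282, and 1.10-fold, limma adjusted p = 0.0109). Its calls were lost in 6 of 19 alternative analyses at 12 h and 2 at 24 h, and 14.4% of its windows occur in 8 other genes, mostly pseudogenes. EEF1A2, the form of muscle and nerve, had 22 to 42 fragments in a library and no call.

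Of the subunits that recharge eEF1A, EEF1D rose at both times, from 27.8, 26.5 and 27.8 FPKM to 33.6, 32.8 and 32.4 at 12 h and 32.1, 28.7 and 30.3 at 24 h (log2 differences 0.27 and 0.15, limma adjusted p = 4.63e-04 and 0.0137). Without replicate 2 with Gln added, its 24 h call was lost (limma adjusted p = 0.0563). Antisense exons overlap 34.0% of it. EEF1B2 and EEF1G, which had a higher FPKM and more fragments, were not called at either time. In a library, EEF1D had 6412 to 8245 fragments, EEF1B2 14299 to 17702 and EEF1G 23509 to 28470. The lengths used were 6927, 884 and 1446 bases, so the gap in FPKM rests in part on length. EEF1B2 had 519, 524 and 536 FPKM with Gln added, against 546, 522 and 541 at 12 h and 559, 513 and 533 at 24 h. EEF1G had 544, 534 and 540.3 FPKM. The 95% intervals of the log2 difference were within -0.11 and 0.11 for both genes at both times. The counts of EEF1G are uncertain, since a readthrough gene covers 99.7% of its exons, and 31.8% of the windows of EEF1B2 occur in other genes.

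Of the 6 enzymes that modify the elongation factors, 3 fell at each time, EEF2K among them, and 3 were not called. The share that fell was 50%, beside 31.0% and 31.7% of all genes. EEF1AKMT1, a lysine methyltransferase of eEF1A, showed the largest fall among the 58 tested members, from 4.62, 5.59 and 5.74 FPKM to 3.12, 2.88 and 3.03 at 12 h and 2.72, 2.35 and 2.35 at 24 h, without overlap (log2 differences -0.79 and -1.07, limma adjusted p = 2.90e-05 and 2.19e-06). It was covered by 98 to 256 fragments in a library. EEF1AKMT2, a methyltransferase of another lysine, fell from 7.28, 5.93 and 6.39 FPKM to 5.15, 5.04 and 5.53 at 12 h and 4.95, 5.09 and 5.09 at 24 h (limma adjusted p = 0.00378 and 0.00123). Exons of a same-strand gene overlap 14.8% of EEF1AKMT2. EEF1AKMT3, EEF1AKMT4 and EEF2KMT, which methylates eEF2, were not called, and exons of a readthrough gene cover 49.2% of EEF1AKMT4.

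Between 12 h and 24 h few translation factors moved. None of the 58 tested members was higher at 24 h by limma, beside 9.57% of all genes, and 7 were lower, beside 10.5%, which is 12.1% of members called beside 20.1% of all genes. By unadjusted p under 0.05, 5 of the 58 were higher and 12 lower, beside 2067 higher and 1941 lower of all 11880 genes. By voom on the recovered fragments 0 members were higher and 7 lower, and the share of all genes by voom is not given here. EIF1 fell back by most, with a log2 difference of -0.29 between the times (SE 0.0339, limma adjusted p = 2.67e-04), and EIF5A fell further (-0.20, limma adjusted p = 0.0135). EIF1B (-0.19), EIF4G2 (-0.14), EIF4H (-0.13) and EIF4B (-0.12) were also lower, with limma adjusted p of 0.0154, 0.0126, 0.0290 and 0.0113. EIF3H (-0.11, limma adjusted p = 0.0333) is named after its value was seen. Of these calls, that of EIF3H was lost in 11 of 19 alternative analyses (limma adjusted p up to 0.108) and that of EIF4H in 8 (up to 0.0951). Without replicate 1 of the 12 h group, 2 members were called lower, EIF1 and EIF4G2, and the other 5 calls were lost.

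The members took a larger part of all FPKM after deprivation. Together they held 1.80% ± 0.0248 (SD, n = 3) with Gln added, against 2.06% ± 0.0147 at 12 h and 2.06% ± 0.0454 at 24 h, and no deprived library overlapped one with Gln added. EEF1A1 accounted for 0.579%, 0.642% and 0.658% and EEF2 for 0.172%, 0.232% and 0.244%. Without EEF1A1, the share was 1.22% ± 0.00598, 1.41% ± 0.00609 and 1.40% ± 0.0254. The start site factors went from 0.145% to 0.219% and 0.200%, and the eIF3 subunits from 0.225% to 0.252% and 0.253%. The summed FPKM that these shares are divided by was 384543 to 387589 with Gln added. It was 373287 to 381354 at 12 h and 371462 to 374523 at 24 h, so part of the rise in share lies in a lower sum.

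Of 84 tested genes for cytosolic ribosomal proteins, 4 rose and 10 fell at 12 h and 13 rose and 17 fell at 24 h (16.7% and 35.7% called, beside 60.2% and 64.7% of all genes), with medians of -0.0001 and 0.024 on the log2 scale. Of 21 aminoacyl-tRNA synthetase genes of the cytosol, which charge tRNAs with amino acids, 13 rose and 4 fell at 12 h (median 0.61) and 14 rose and 4 fell at 24 h (median 0.55), which is 81.0% and 85.7% called. The differences between these lists were not tested. The median absolute difference of the translation factors was 0.136 at 12 h and 0.138 at 24 h, beside 0.255 and 0.284 for all genes.

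**Figure D1:**
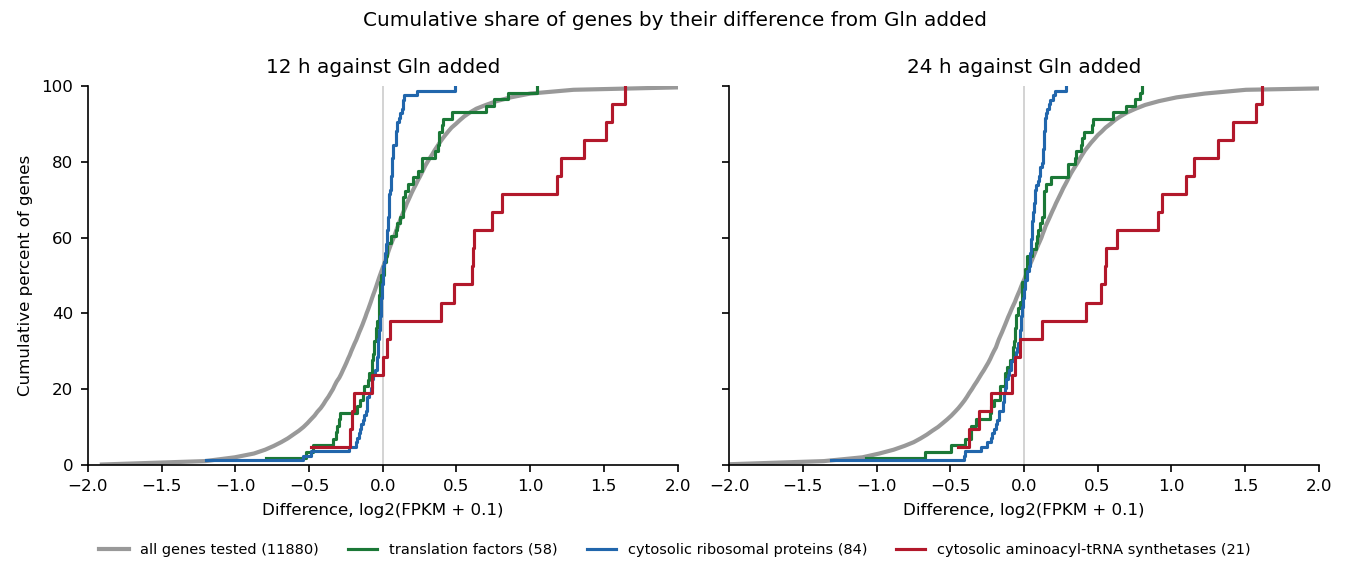
Cumulative percent of genes (y axis) by their difference from Gln added on the log2(FPKM + 0.1) scale (x axis) at 12 h and 24 h, for all 11880 genes tested, the 58 translation factors, 84 ribosomal protein genes and 21 aminoacyl-tRNA synthetase genes. The synthetases lie to the right, with medians of 0.61 and 0.55, while the medians of the other lists are near 0.

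Of 46 other genes of translation control, termination and the mitochondrial machinery, 18 rose and 10 fell at 12 h, and 16 rose and 10 fell at 24 h. The called shares, 60.9% and 56.5%, stood beside 60.2% and 64.7% of all genes. PPP1R15A, which directs a phosphatase to eIF2, rose from 6.90, 6.53 and 6.35 FPKM to 28.3, 29.3 and 27.1 at 12 h and 29.3, 30.1 and 29.6 at 24 h (log2 differences 2.08 and 2.15, limma adjusted p = 1.56e-10 and 1.19e-10). PDCD4, which encodes an inhibitor of the helicase eIF4A, rose from 12.7 to 19.7 and 21.6 FPKM (limma adjusted p = 4.15e-07 and 6.49e-08). EIF2AK4, the eIF2 kinase that senses uncharged tRNA, fell from 22.9 to 18.1 and 18.0 FPKM (limma adjusted p = 7.46e-05 and 5.24e-05). The release factor genes ETF1 and GSPT1 rose at both times, with log2 differences of 0.39 and 0.33 for ETF1 and 0.32 and 0.31 for GSPT1.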

How the data were processed

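RNA from 9 HepG2 libraries in 3 groups of 3 was analysed. The values deposited by the authors were FPKM of each gene in each library. According to the methods, reads were aligned to GRCh38 with STAR and tested with DESeq2, and the submitters' processing notes name HTSeq and R 3.2.0. The labels name the VAHTS Universal V6 kit and the methods another, strand-specific kit, and whether the counting used strand is not given in the sources used here. Gene lengths and library totals were solved from the steps of the FPKM values, which gave whole fragments for 100% of the genes. FPKM are relative to the sum of each library, so a change in total RNA per cell is not seen.

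Differences on log2(FPKM + 0.1) were tested in limma 3.58.1 (R 4.3.3, eBayes with a trend), in place of a count model. The 3 groups shared 1 fit, genes under a mean of 0.5 FPKM were dropped, and p-values were adjusted after Benjamini-Hochberg over 11880 genes. Fold changes on this scale are understated near 0.1 FPKM. The limma step and the solving of fragments were each run on simulated data with known answers, and the latter returned all library totals and the fragments of most genes, not of all. Exact permutation of 3 against 3 cannot give a p below 0.1 and was not used. Folds and ratios are of FPKM.

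The members, gene lists and tests were chosen with earlier results of these data known. Named genes were the 8 largest rises and falls at each time and the 5 largest differences between the times among called members (mean of at least 1 FPKM, no overlap between groups), and 41 members named whatever their value. The lists of the other genes of translation, ribosomal proteins and synthetases are given as counts with examples. Pairs of replicates differed by more than sampling noise (chi-square per gene 2.88 to 14.4). Positions, shared 100-base windows and overlaps came from GENCODE 44, promoters from RefSeq. The alternatives were pseudocounts of 1 and 0.01, a filter of 1 FPKM or none, equal summed FPKM, median-ratio scaling, fits of 2 groups, a block on the replicate number, untrended eBayes, voom on the recovered fragments and each library left out. Figures were drawn with matplotlib 3.10.9. The TRIB3 knockdown samples were not analysed here.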

Additional observations from a re-analysis of the deposited data

Results flagged for a closer look

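For 7 members the level differed between 12 h and 24 h of Gln deprivation in a test of the difference itself (limma, adjusted over 11880 genes). That was 12.1% of the 58 tested members, beside 20.1% of all genes called and 10.5% called lower. The log2 difference of 24 h against 12 h was -0.29 for EIF1, -0.20 for EIF5A, -0.19 for EIF1B, -0.14 for EIF4G2, -0.13 for EIF4H, -0.12 for EIF4B and -0.11 for EIF3H. All 7 were lower at 24 h. The label gives no time for the libraries with Gln added, so an effect of deprivation cannot be told apart from time in culture here. EIF1, EIF4B and EIF4G2 were above Gln added at 12 h and nearer to it at 24 h, while EIF5A and EIF4H were below it at 12 h and lower still at 24 h. EIF3H passed against Gln added at 24 h alone, and EIF1B at neither time. Without replicate 1 of the 12 h group, 5 of the 7 calls were lost, those of EIF5A, EIF1B, EIF4H, EIF4B and EIF3H (limma adjusted p = 0.0560, 0.0636, 0.0575, 0.0514 and 0.0797). Over all 19 alternatives the EIF3H call was lost in 11 and the EIF4H call in 8, while those of EIF1 and EIF4G2 held in each (limma adjusted p up to 0.00313 and 0.0457). Groups of 3 libraries were not examined for outlying samples.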

How the results depend on the processing

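Under 19 alternatives, 2412 of 2505 recomputed values of the 44 named and tested genes stayed on their side of the threshold, 66 lost their call, 27 gained one and 0 reversed a call. Among the values not called, 61 changed sign, none larger than 0.17 in size. Of the 62 calls of these genes, 16 were lost in at least 1 alternative, most often EIF4H at 12 h (12 alternatives, log2 difference -0.11 to -0.06) and between the times (8) and EIF2B4 at 24 h (11). The cause was not tested. The calls of EIF1, EIF2S2, EIF2S3, EIF3A, EIF3J, EIF4G3, EEF2, EEF2K, EIF2B1 and EIF4E2 against Gln added held in all of them.

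With FPKM rescaled to the same total, the median log2 difference of the members was 0.031 at 12 h and 0.053 at 24 h, 1 member was higher at 24 h than at 12 h, and the split of calls between the times was 1 higher and 6 lower, against 1301 higher and 1095 lower of all genes in place of 1137 and 1249. With median-ratio scaling, 11 members were lower at 24 h than at 12 h, the median was -0.0396, and all genes split into 847 higher and 1692 lower. Neither scaling moved the median of all genes by more than 0.047. Without 1 library at a time, the median was -0.00683 to 0.024 at 12 h and -0.024 to 0.022 at 24 h, and between the times 0 to 3 members were higher and 2 to 10 lower, the 2 without replicate 1 of the 12 h group, the 3 without replicate 2 of the 24 h group and 1 higher without replicate 2 of the 12 h group. The highest 12 h median came without replicate 2 of that group and the lowest 24 h median without replicate 1 of that group.

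The replicate number did not pair the samples: deviations of same-numbered libraries correlated at -0.033 to 0.062 between Gln added and the deprived groups, and at 0.252, -0.136 and 0.283 between the times. With the replicate block, 20 members rose and 11 fell at 12 h, and 1 was higher and 7 were lower at 24 h than at 12 h. Not every library correlated best with its own number. The block moved no other count by over 1.5 times. EEF1A2 has no value with a filter of 1 FPKM, which it does not reach. Few fragments limit EEF1A2, EIF4E3 and EIF4EBP3, and the standard errors of EEF1A2, EIF3CL and EIF3C were the largest among the members.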
